A study of Solanum lycopersicum with 3 samples.

Results

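The miRNA reads of tomato ovaries treated with dsRNA against AGL6 (AGL6sil) were set directly against those of ovaries treated with dsRNA against IAA9 (IAA9sil), without the mock-treated ovaries (ctrl) as an intermediate. Every miRNA with 50 or more reads summed over AGL6sil, IAA9sil and ctrl was taken. This left 374 of 634 listed miRNAs, made up of 91 of 125 known miRNAs (named sly-miR) and 283 of 509 miRNAs that the study had predicted from hairpin structure (numbered with the prefix novel_), and both classes were kept apart. ctrl entered only this sum and the choice of the minor arm of a precursor, described with the arms.

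All ovaries came from the cultivar UC82, were emasculated before anthesis and were not pollinated. In AGL6sil and in IAA9sil the pedicel had received 5 µg of dsRNA per ovary on 1 mg of layered double hydroxide (LDH), a layered mineral that carries the dsRNA into the tissue, and buds were emasculated 6 h later and collected after 5 days. ctrl ovaries had received the LDH alone. The libraries differed in the gene targeted by the dsRNA, and silencing by this route is transient and partial. The paper reports a larger reduction of the AGL6 transcript than of the IAA9 transcript, so the depth of silencing differed as well. The sample labels speak of detached ovaries, while the treatment protocol left the buds on the plant. Each library was made from 1 pool of ovaries, so there was 1 library per group, no replicate and no test: the ratios compare these libraries and not the conditions. Only small RNAs were counted, so neither the transcripts of AGL6 and IAA9 nor marker transcripts of the ovary were analysed here, and silencing and tissue were not checked. In bulk RNA, fewer cells that make a miRNA and less miRNA per cell cannot be told apart.

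AGL6 is a MADS-box transcription factor and IAA9 a repressor of the auxin response, and both hold back the growth of the ovary before fertilization. A plant miRNA is cut by DCL1 from a hairpin precursor as a duplex of its 5p and 3p arms. Usually one arm, the guide, is loaded into AGO1 and pairs along most of its length with target mRNAs, while the other, the passenger, is degraded. Many conserved families target transcription factors of organ development, others target nutrient transporters, copper proteins, immune receptors or the silencing machinery itself. Small RNAs of 24 nt, frequent among predicted plant miRNAs, are usually products of other Dicer-like enzymes.

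Mature sequences were at hand for 44 known and 42 predicted miRNAs of the comparison, from the supplementary tables of the study. The tables hold only miRNAs chosen for their change against ctrl, so these sequences are a selected set. Bases 2 to 8, the seed, are in capitals below, 5′ to 3′. The first sequences are those of the known miRNAs that were higher in AGL6sil than in IAA9sil, with the predicted miRNAs that match or pair with one of them, miR395a.
sly-miR398a: uAUGUUCUcaggucgccccug
sly-miR397-3p: uCAACGCUaaacucgaucaug
sly-miR395a: cUGAAGUGuuugggggaacucc
sly-miR393: aUCAUGCGaucucuucggaau
novel_81: gCUGAAGUguuuaggggaacu
novel_4: uUGAAGUGuuugagggaacuc
novel_69: uUCCCUUGaccgcuucauuag
novel_220: gUUCCCUUgaucacuucaug

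The next are known miRNAs that were far lower in AGL6sil than in IAA9sil under every way of scaling that was tried. Most of them are arms of well-known precursors that are usually regarded as the passenger.
sly-miR394-3p: aGGUGGGCauacugucaaca
sly-miR164a-3p: cAUGUGCCuguuuuccccauc
sly-miR166c-5p: gGGAUGUUgucuggcucgaca
sly-miR168a-3p: cCUGCCUUgcaucaacugaau
sly-miR396a-3p: gUUCAAUAaagcugugggaag
sly-miR403-5p: cGUUUGUGcgugaaucuaaca
sly-miR171f: uAUUGGCCugguucacucaga
sly-miR171a: uGAUUGAGccgugccaauauc
sly-miR171b-3p: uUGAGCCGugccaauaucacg
sly-miR9472-5p: uUUCAGUAgacguugugaaua
sly-miR9476-5p: uCUAGUCCugcaucuuuuuuu

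The last are predicted miRNAs with a large difference, and miR172c, with which novel_264 can pair.
novel_267: aAUUGUCAuguaggacgaacgugu
novel_351: uGAAGGUCcgagguugagguu
novel_264: gCAGCACCauuaagauucac
sly-miR172c: aGAAUCUUgaugaugcugcag

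The 634 miRNAs held 1460919 reads in AGL6sil and 1053000 in IAA9sil. Predicted miRNAs made up 4.45% of the reads in AGL6sil (95% Clopper-Pearson interval 4.42 to 4.48) and 3.18% in IAA9sil (3.14 to 3.21). Such intervals, and all others below, cover counting error only, because copies of 1 molecule made by PCR cannot be told apart from separate molecules. Among the known miRNAs compared, the median count was 303 in AGL6sil and 651 in IAA9sil. The predicted ones went the other way, with a median of 76 in AGL6sil and 39 in IAA9sil. Each count was divided by the median of its library over all 634 miRNAs, 33 in AGL6sil and 18 in IAA9sil, and the result is given as the log2 ratio of AGL6sil over IAA9sil, with a positive value where AGL6sil was higher. A log2 ratio of 1.5, a 2.83-fold difference, was taken as the limit in either direction.

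With the library median, known miRNAs were mostly lower in AGL6sil than in IAA9sil, and predicted ones more often higher. Of the 91 known miRNAs, 32 (35.2%) were past the limit and lower in AGL6sil and 4 (4.40%) past it and higher. For 23 of the lower (25.3%) and 2 of the higher (2.20%) the whole counting interval lay past the limit. Of the 283 predicted miRNAs, 16 (5.65%) were lower and 28 (9.89%) higher, and the whole interval was past the limit for 8 (2.83%) and 12 (4.24%). Over both classes together, 48 of 374 (12.8%) were lower and 32 (8.56%) higher in AGL6sil. These shares are the background for every group of miRNAs described below.

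The median log2 ratio was −0.81 over the known and 0.19 over the predicted miRNAs. Regardless of size, 77 known miRNAs lay below 0 and 14 above, and 118 predicted ones lay below and 165 above. For the known miRNAs this count turned round with the median of their own class, to 35 below and 56 above, and was nearly even with clean reads, at 44 below and 47 above. Both classes were divided by the same factor, so the gap of 1.00 between their medians holds for any scaling that uses 1 factor per library. In raw reads, 46 known miRNAs had more reads in AGL6sil than in IAA9sil and 45 had fewer, against 246 and 35 of the predicted ones. The middle 50% of the known miRNAs ran from −2.08 to −0.37 and that of the predicted ones from −0.35 to 0.72.

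**Figure D1:**
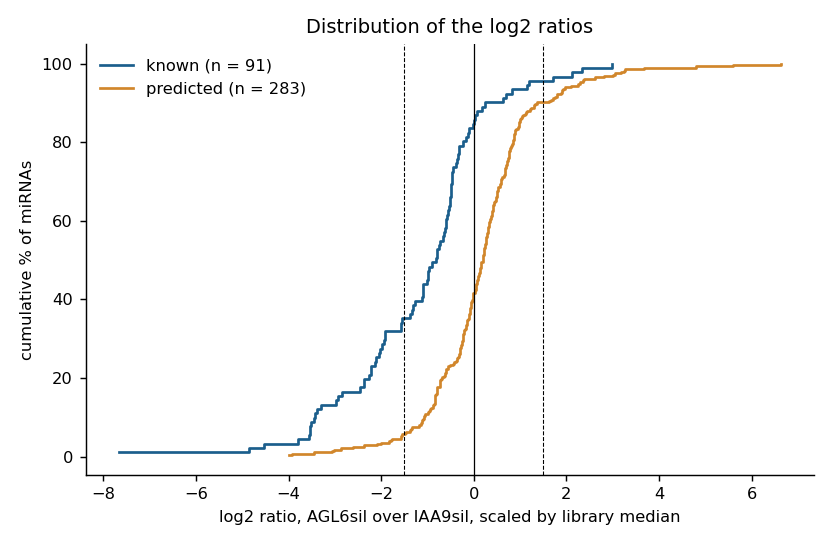
Cumulative percentage of miRNAs (y axis) against the log2 ratio of AGL6sil over IAA9sil scaled by library median (x axis), for 91 known and 283 predicted miRNAs; the solid line marks 0 and the dashed lines the limit of 1.5 in both directions. The curve of the known miRNAs lies to the left throughout its middle part, with medians of −0.81 for known and 0.19 for predicted miRNAs.

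**Figure D2:**
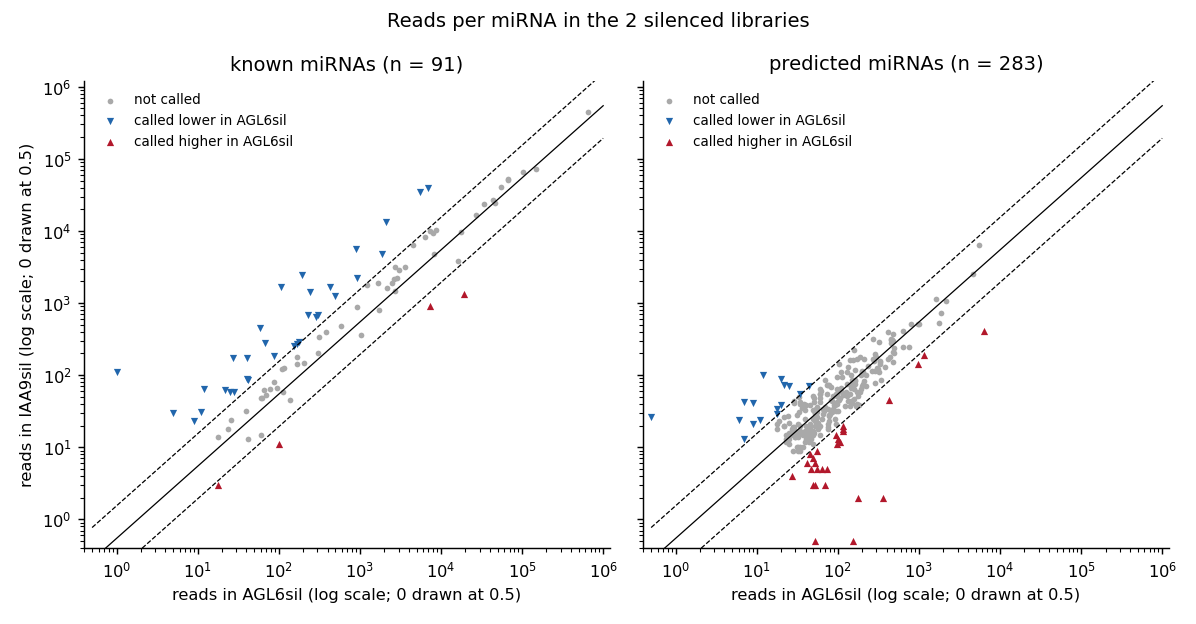
Reads per miRNA in AGL6sil (x axis) and IAA9sil (y axis), both on log scales with a count of 0 drawn at 0.5, for known (left) and predicted miRNAs (right). The solid line is equality after scaling, the dashed lines are the log2 limit, and triangles mark miRNAs past it: 32 lower and 4 higher known ones, and 16 lower and 28 higher predicted ones.

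The scale decided how many known miRNAs were past the limit, but not which direction led among those past it. With known and predicted miRNAs each divided by their own median, the known ones split into 15 lower and 10 higher in AGL6sil, and the predicted ones into 18 lower and 27 higher. Scaled by the clean reads of each library, 15 known miRNAs were lower and 9 higher, and 7 predicted ones were lower and 91 higher. Raw counts gave 16 lower and 9 higher known miRNAs and 7 lower and 82 higher predicted ones. Lower ones were thus 88.9% of the known miRNAs past the limit with the library median, 60% with the class median, 62.5% with clean reads and 64% with raw counts. Among the predicted ones they were 36.4%, 40%, 7.14% and 7.87%, in the same order of scales.

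The scale also moved the medians themselves. Relative to the library median, the median known log2 ratio was higher by 1.28 with the class median, by 0.97 with clean reads, by 0.87 with raw counts, by 0.40 with the total miRNA reads and by 0.11 with TMM, and so turned to positive values with the first 3 of these. For this reason the known miRNAs are given below both with their log2 ratio and with their place relative to the median of the known class, which does not depend on the scale. Under all 7 scales tried, 15 known miRNAs stayed lower and 4 higher, and 7 predicted ones stayed lower and 27 higher, past the limit each time. For known miRNAs the library median gave the largest factor of AGL6sil over IAA9sil (1.83), so every other scale raised their ratios. The 4 higher known miRNAs could therefore not fall short, and only the lower ones were put to a check. For predicted miRNAs only the class median had a larger factor (2).

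**Figure D3:**
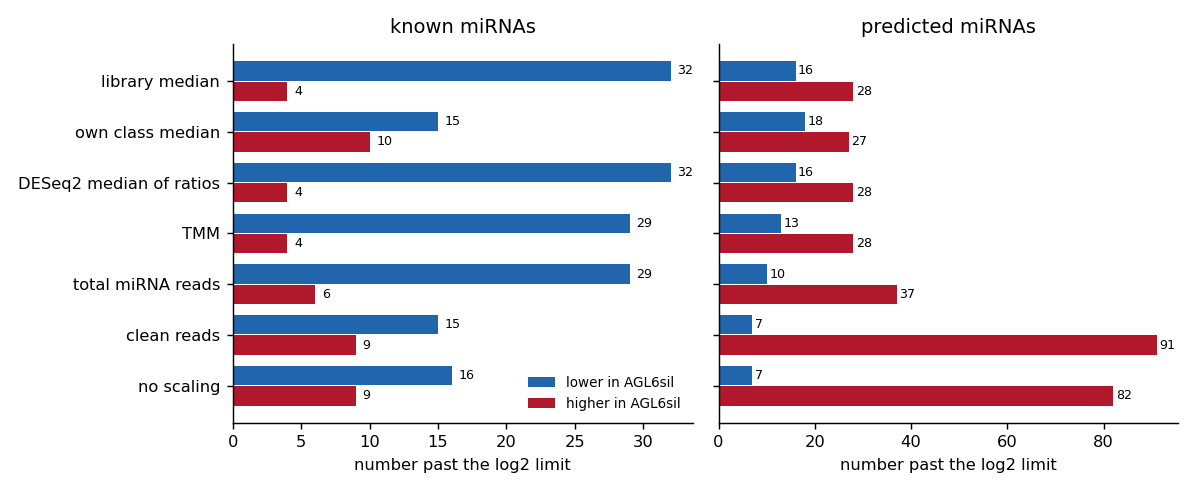
Number of known (left) and predicted (right) miRNAs past the log2 limit (x axis) under 7 ways of scaling the libraries (y axis), with bars for lower and for higher in AGL6sil. Lower ones outnumber higher ones among known miRNAs under each scale, from 32 and 4 with the library median to 15 and 10 with the class median, and higher ones outnumber lower ones among predicted miRNAs under each.

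Of the miRNAs that respond to mineral nutrition, 3 stood at the upper end of the known class, and miR408 did not. Of 7 listed, 4 were compared, and 3 of these were past the limit and higher in AGL6sil and 0 lower. Among all 91 known miRNAs, 4.40% were higher and 35.2% lower. The median log2 ratio of the 4 was 2.23, or 3.04 above the median of the known class. miR398a, which targets copper superoxide dismutases, had 19338 reads in AGL6sil and 1326 in IAA9sil, a log2 ratio of 2.99 (interval 2.91 to 3.07) or 7.95-fold. It was the known miRNA with the highest ratio, and it alone gave 4.42% of the read excess of AGL6sil over IAA9sil.

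miR397-3p belongs to a family whose members target laccases, copper enzymes of the cell wall. It had 102 reads in AGL6sil and 11 in IAA9sil, a log2 ratio of 2.34 (1.44 to 3.39). AGL6sil held 102 of its 126 reads over the 3 libraries, so it passed the read limit through AGL6sil. The other arm, miR397-5p, was under the read limit, with 10 reads in AGL6sil and 6 in IAA9sil (−0.14, interval −1.74 to 1.61). miR395a, which targets genes of sulfate uptake and assimilation, had 7258 reads in AGL6sil and 904 in IAA9sil and a ratio of 2.13 (2.03 to 2.23). miR398a, miR397-3p and miR395a were past the limit under all 7 scales, which was fixed once they were past it with the library median. miR408, also a regulator of copper proteins, was not past it, with 205 reads in AGL6sil and 146 in IAA9sil and a ratio of −0.38 (−0.70 to −0.07), which lay above the median of the known class and turned to 0.89 at the highest scale.

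Among the predicted miRNAs with a known sequence, 4 resembled miR395a. All had more raw reads in AGL6sil, as did 246 of all 283 predicted miRNAs compared. The mature sequence of novel_81 matched that of miR395a at 19 of 20 positions on the same strand, and novel_4 matched it at 19 of 21 and shared its seed. novel_81 had 64 reads in AGL6sil and 5 in IAA9sil (log2 ratio 2.80, interval 1.51 to 4.47). novel_4 had 1898 reads in AGL6sil and 720 in IAA9sil (0.52, interval 0.40 to 0.65) and was not past the limit.

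The other 2 could pair with miR395a in a duplex with 2 unpaired positions, as an opposite arm would. novel_69 had 70 reads in AGL6sil and 3 in IAA9sil, a log2 ratio of 3.67 (2.06 to 5.98). It passed the read limit through AGL6sil, with 79 reads over the 3 libraries. novel_220, which was not past the limit, had 61 reads in AGL6sil and 15 in IAA9sil and a ratio of 1.15 (0.32 to 2.07). In all, 2 of 2162 pairs of a known and a predicted sequence matched on the same strand with at most 3 mismatches over 18 or more positions, both with miR395a, and 4 could form a duplex. A likeness of sequence is a description of the letters and does not show that these are arms of miR395 precursors.

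The families that target transcription factors of development made up the largest group, with 27 miRNAs. Of these, 12 were past the limit and lower in AGL6sil and 0 higher, against 35.2% lower and 4.40% higher among all 91 known miRNAs. Their median log2 ratio, over the 27, was −1.34, which is 0.54 below the median of the known class. The 12 include miR164a-3p, miR166c-5p and miR396a-3p, arms usually regarded as the passenger and not as the arm that pairs with the targets. Relative to that class median, 18 lay below and 8 above. Under all 7 scales, 9 of the 12 remained past the limit.

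The miR164 family, whose targets are NAC factors of organ boundaries, was lower with all 3 of its miRNAs. miR164a-3p had 195 reads in AGL6sil and 2470 in IAA9sil, a log2 ratio of −4.54 (−4.76 to −4.33), the lowest of the group. miR164a-5p, the arm that carries the NAC pairing, had 41 reads in AGL6sil and 175 in IAA9sil (−2.97, interval −3.50 to −2.47). miR164b-3p, which can pair with miR164a-5p, had 425 reads in AGL6sil and 1667 in IAA9sil (−2.85). All 3 held under every scale.

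In the miR171 family, regulators of GRAS factors of the HAM type, 3 of 5 miRNAs were past the limit. miR171f, the most abundant, had 2083 reads in AGL6sil and 13246 in IAA9sil, a log2 ratio of −3.54 (−3.61 to −3.48). miR171b-3p had 27 reads in AGL6sil and 173 in IAA9sil (−3.55, interval −4.20 to −2.96), and miR171a had 67 in AGL6sil and 280 in IAA9sil (−2.94, interval −3.35 to −2.55). These last 2 sequences are identical over 18 of 18 overlapping bases and can share reads, so their counts are not independent. miR171f could pair with miR171a over 19 positions with 2 unpaired, so a sequence of the passenger type held most reads of the family, 84.9% in AGL6sil (interval 83.4 to 86.3) and 94.9% in IAA9sil (94.5 to 95.2). miR171c and miR171e were not past the limit, at −1.01 and −0.64, and their direction turned to 0.27 and 0.64 under the scale by class median.

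miR166 targets class III HD-ZIP factors, which set organ polarity and act in ovule formation. The 5p arm miR166c-5p had 7001 reads in AGL6sil and 39869 in IAA9sil, a log2 ratio of −3.38 (−3.42 to −3.35). The abundant 3p sequences differed far less, miR166a with 103483 reads in AGL6sil and 66525 in IAA9sil (−0.24, interval −0.25 to −0.22) and miR166c-3p with 67818 in AGL6sil and 53101 in IAA9sil (−0.52, interval −0.54 to −0.51). Both turned to positive values under other scales, up to 1.04 and 0.76. Near-identical copies of this family may share reads.

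The miR396 family, regulators of the GRF growth factors, had the same form. miR396a-3p had 5560 reads in AGL6sil and 34765 in IAA9sil, a log2 ratio of −3.52 (−3.56 to −3.48). miR396a-5p had 2712 reads in AGL6sil and 3186 in IAA9sil (−1.11), and miR396b had 8234 in AGL6sil and 4825 in IAA9sil (−0.10), and both turned positive under other scales. Of the reads of the family, miR396a-3p held 33.7% in AGL6sil (interval 33.0 to 34.4) and 81.3% in IAA9sil (80.9 to 81.6).

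Of the other families of this group, miR169e-3p, from a family that targets NF-YA factors, had 12 reads in AGL6sil and 64 in IAA9sil (log2 ratio −3.29, interval −4.32 to −2.39). miR172c, which acts on AP2 factors of floral organ identity, had 28 reads in AGL6sil and 58 in IAA9sil (−1.93, interval −2.63 to −1.25). miR319a, a regulator of TCP factors, was just inside the limit with 169 reads in AGL6sil and 271 in IAA9sil at −1.56, and its relative miR319c-3p just outside it at −1.38, as was miR169f at −1.34. These ratios near the limit, and that of miR172c, were not past it under the scale by class median. miR156a and miR156d-5p, regulators of SPL phase-change factors, were at −0.98 and −0.81 and so close to the median of the known class.

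miR159, which represses the gibberellin-regulated GAMYB factors, had the most reads of the group, 148794 in AGL6sil and 71393 in IAA9sil, with a log2 ratio of 0.18 (0.17 to 0.20). miR160a was the highest of the 27, with 1035 reads in AGL6sil and 363 in IAA9sil and a ratio of 0.64 (0.46 to 0.81). Neither was past the limit with the library median. Both stayed positive under every scale, since every other scale raised the ratios of known miRNAs.

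The auxin pathway overlaps the previous group through miR160 and miR167. Of its 8 miRNAs, 3 were lower and 1 higher, against 35.2% lower and 4.40% higher among all 91 known miRNAs. Their median log2 ratio was −1.12, or 0.32 below that of the known class. miR393, which targets the TIR1/AFB auxin receptors, was the one that was higher, with 18 reads in AGL6sil and 3 in IAA9sil. Its log2 ratio was 1.71, and with the library median its counting interval of −0.07 to 4.12 included 0. With that scale a difference was thus not detectable beyond counting error. TMM raised the ratios of known miRNAs by 0.11 and the class median by 1.28, so whether the interval included 0 depended on the scale. It passed the read limit through 31 of its 52 reads in ctrl.

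miR167, which targets ARF6 and ARF8, was represented by miR167b-5p with 22 reads in AGL6sil and 62 in IAA9sil (−2.37, interval −3.14 to −1.65) and by the more abundant miR167a with 313 in AGL6sil and 336 in IAA9sil (−0.98, interval −1.20 to −0.75). The sequences match at 19 of 21 positions. miR390 starts the production of the siRNAs that act on ARF3 and ARF4. miR390b-5p had 927 reads in AGL6sil and 2229 in IAA9sil (−2.14, interval −2.25 to −2.03), and miR390a-5p had 42 in AGL6sil and 87 in IAA9sil (−1.93, interval −2.49 to −1.38). miR390b-3p held the most reads of the group, 6293 in AGL6sil and 8279 in IAA9sil, at −1.27. None of the lower miRNAs of the auxin pathway was past the limit under all scales.

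The 6 miRNAs of families that target the silencing machinery were all below 0 with the library median, as were 77 of all 91 known miRNAs. Of the 6, 3 were past the limit and lower, against 35.2% of all known miRNAs, and the median log2 ratio was −1.33. Relative to the median of the known class, 4 lay below and 2 above. Of those past the limit, miR168a-3p and miR403-5p are arms usually regarded as the passenger, and miR403-3p is a guide arm. miR162, which targets DCL1, was the most abundant miRNA of both libraries, with 645220 reads in AGL6sil and 439760 in IAA9sil. Its log2 ratio was −0.32 (−0.33 to −0.32) and turned to 0.96 under the scale by class median. The difference of 205460 reads made up 50.4% of the 407919 reads by which AGL6sil exceeded IAA9sil, followed by 19.0% for miR159 and 9.06% for miR166a.

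miR168 targets AGO1. miR168a-3p had 885 reads in AGL6sil and 5600 in IAA9sil, a log2 ratio of −3.54 (−3.64 to −3.43), while miR168a-5p had 1653 in AGL6sil and 1917 in IAA9sil (−1.09) and miR168b-3p had 2663 in AGL6sil and 2134 in IAA9sil (−0.55). In miR403, a regulator of AGO2, both arms were past the limit. miR403-5p had 240 reads in AGL6sil and 1404 in IAA9sil (−3.42, interval −3.63 to −3.22) and miR403-3p had 155 in AGL6sil and 250 in IAA9sil (−1.56, interval −1.86 to −1.27). Only miR168a-3p and miR403-5p of this group held under every scale.

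Immune receptor regulators, which guide the cleavage of NBS-LRR and receptor-like protein transcripts, lay mostly above the median of the known class. Of 13, 4 were lower and 0 higher, against 35.2% lower and 4.40% higher among all 91 known miRNAs. The median log2 ratio was −0.48, or 0.32 above that of the class, and 8 lay above the class median. miR482a was the highest with 16035 reads in AGL6sil and 3849 in IAA9sil and a ratio of 1.18 (1.13 to 1.24), and it was past the limit under 4 of the other scales, namely class median, clean reads, raw counts and total miRNA reads. The most abundant, miR482e-3p, had 33921 reads in AGL6sil and 23545 in IAA9sil (−0.35).

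The lower ones were miR5300, with 228 reads in AGL6sil and 678 in IAA9sil (−2.45, interval −2.67 to −2.23), and 3 opposite arms. miR482e-5p had 1860 reads in AGL6sil and 4848 in IAA9sil (−2.26, interval −2.33 to −2.18). miR6027-5p had 494 reads in AGL6sil and 1251 in IAA9sil (−2.21). miR482d-5p had 9 in AGL6sil and 23 in IAA9sil (−2.23, interval −3.52 to −1.06). None of the 4 was past the limit under all scales.

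The families from miR9469 upwards, described mainly from tomato, counted 22 miRNAs. Of these, 7 were lower and 0 higher, against 35.2% lower and 4.40% higher among all 91 known miRNAs. Their median log2 ratio was −0.88, with as many above as below the class median, 11 each. miR9472-5p had 106 reads in AGL6sil and 1679 in IAA9sil, a log2 ratio of −4.86 (−5.16 to −4.58). miR9476-5p had 59 reads in AGL6sil and 446 in IAA9sil (−3.79, interval −4.21 to −3.40). miR9471b-5p had 5 in AGL6sil and 30 in IAA9sil (−3.46, interval −5.18 to −2.08). These 3 held under every scale. miR9474-5p was the highest of the group with 61 reads in AGL6sil and 15 in IAA9sil (1.15, interval 0.32 to 2.07), and miR10532 the most abundant with 66434 in AGL6sil and 50179 in IAA9sil (−0.47).

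Among 5 Solanaceae miRNAs of lower number, 2 were lower and 0 higher, against 35.2% lower and 4.40% higher among all 91 known miRNAs. Their median log2 ratio was −0.54. miR5304 was the lowest with 41 reads in AGL6sil and 88 in IAA9sil (−1.98), and miR1919a was just inside the limit at −1.58. The 8 miRNAs of other families had a median of −0.48, with 0 higher and 2 lower, against the same shares among all known miRNAs. Both lower ones were arms of miR394, which targets the F-box transcript LCR. miR394-3p had 1 read in AGL6sil and 111 in IAA9sil, a log2 ratio of −7.67 with a wide interval of −12.99 to −5.16. miR394-5p had 309 reads in AGL6sil and 685 in IAA9sil (−2.02, interval −2.22 to −1.83), and was not past the limit under 3 of the scales. miR7981e, at −0.46, was the most abundant of these families. miR391, which was placed in no group, had 929 reads in AGL6sil and 876 in IAA9sil (−0.79), close to the median of the known class.

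**Figure D4:**
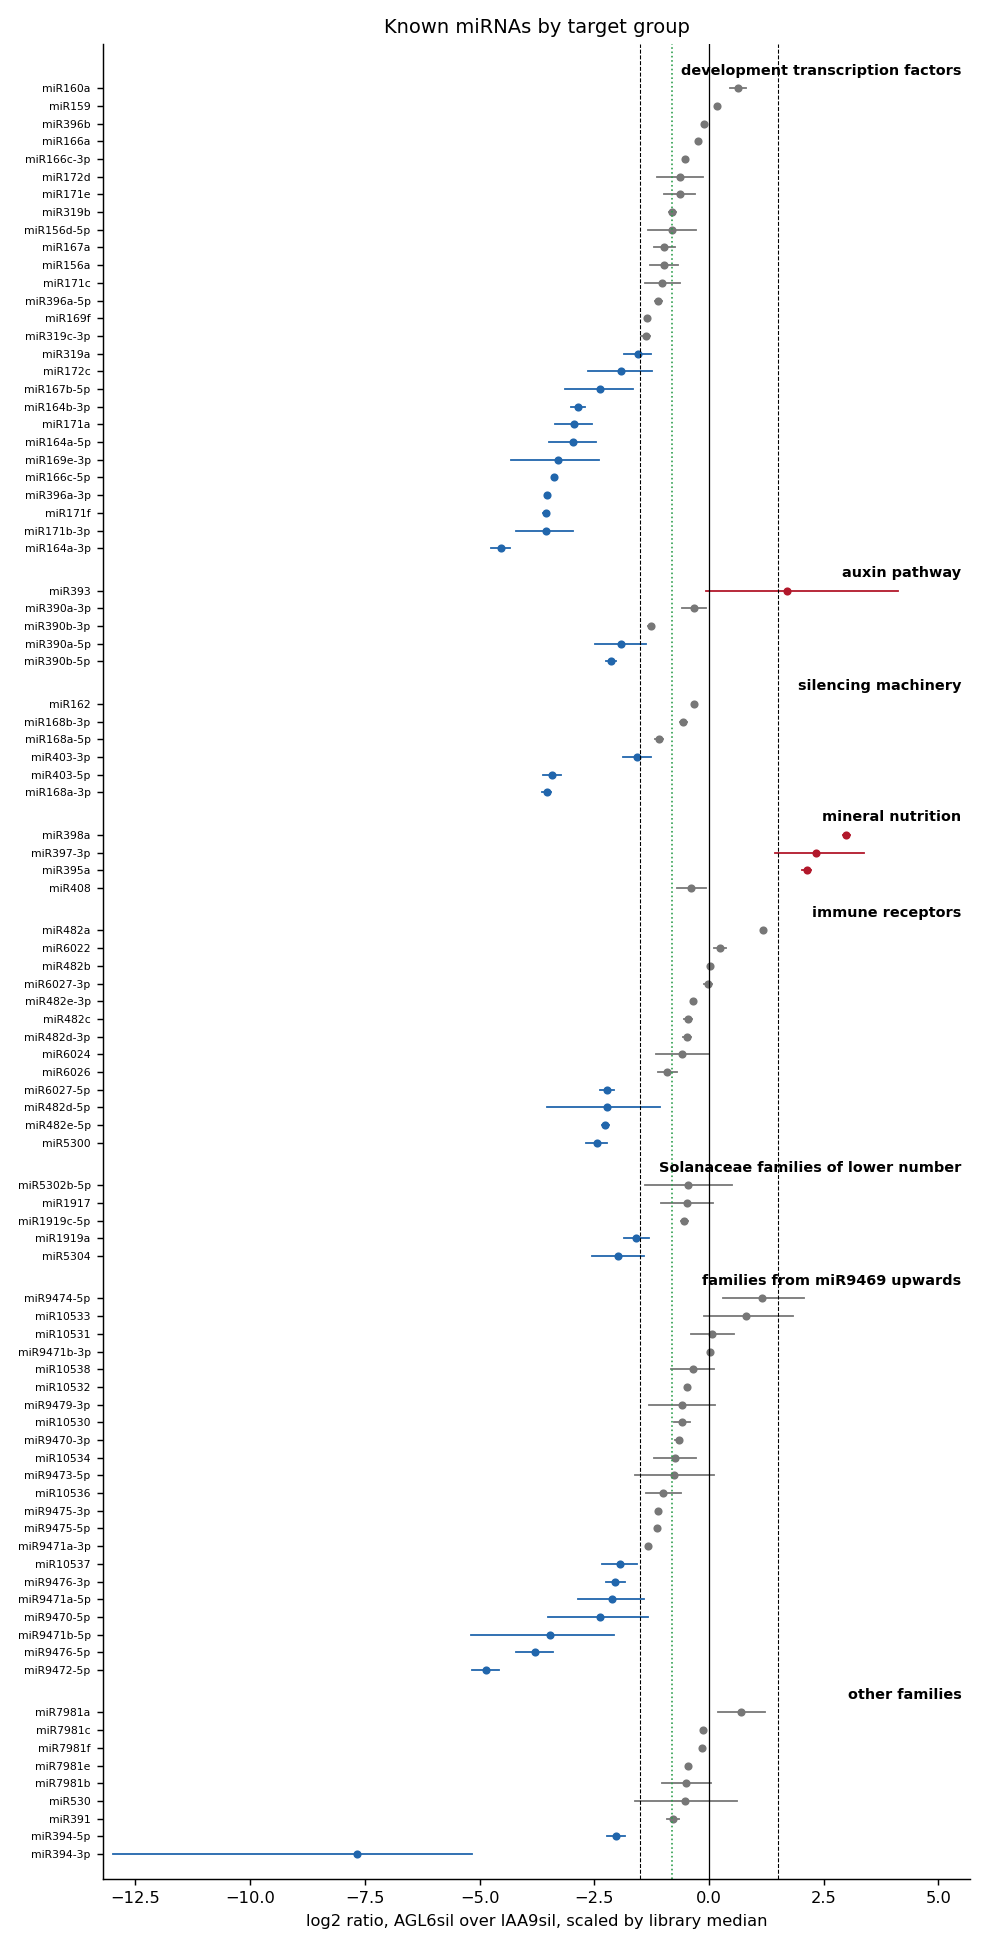
Log2 ratio of AGL6sil over IAA9sil (x axis, scaled by library median) of the 91 known miRNAs (y axis), each drawn once and grouped by the targets of its family, with 95% counting intervals. Blue and red points are lower and higher past the limit (dashed lines), grey points are not past it, and the green dotted line is the median of the class at −0.81; miR391 is drawn with the other families; the mineral nutrition miRNAs lie right of it, and most development miRNAs left of it.

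Several of the lowest ratios were those of 1 arm of a precursor whose other arm differed less. The ratio of the arms within a library needs no scale, so it can be compared directly between the libraries. Both arms had at least 50 reads in the 3 libraries together for 16 precursors. With the minor arm defined as the one with fewer reads in ctrl, the minor arm was lower relative to the other in AGL6sil than in IAA9sil, with the counting interval of the shift below 0, in 10 of 16 (62.5%). It was higher with the interval above 0 in 5, and for miR9475 the shift was 0.02 (−0.04 to 0.08).

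The shift was largest for miR394, whose 3p arm held 0.323% of the reads of both arms in AGL6sil (interval 0.00817 to 1.78) and 13.9% in IAA9sil (11.6 to 16.5). That is a log2 shift of −5.65 (−10.97 to −3.12), resting on the single read of AGL6sil. In miR6027 the 5p arm held 15.5% in AGL6sil (14.3 to 16.9) and 45.7% in IAA9sil (43.8 to 47.6). In miR482e it held 5.20% in AGL6sil (4.97 to 5.43) and 17.1% in IAA9sil (16.6 to 17.5). The 5p arm of miR9471b, a small fraction of its pair in both libraries, shifted by −3.48 (−5.20 to −2.10).

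The 5 precursors that went the other way were miR164a, miR403, miR396a, miR168a and miR166c. In each of these, the arm with more reads in ctrl is the one usually regarded as the passenger. miR166c-5p held 9.36% of the reads of its pair in AGL6sil (9.15 to 9.57) and 42.9% in IAA9sil (42.6 to 43.2). miR168a-3p held 34.9% in AGL6sil (33.0 to 36.8) and 74.5% in IAA9sil (73.5 to 75.5), so that the more abundant arm differed between the libraries. miR396a-3p held 67.2% in AGL6sil (66.2 to 68.2) and 91.6% in IAA9sil (91.3 to 91.9).

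Sorted instead by the passenger arm as known for the family, a choice made after seeing the data, the passenger was the lower arm in AGL6sil in 9 of 11 precursors with a known guide. The median log2 ratio was −3.38 for the passenger and −1.11 for the guide arms. The exceptions were miR390a and miR390b, whose 3p passenger was relatively higher in AGL6sil, with shifts of 1.61 (0.99 to 2.23) and 0.87 (0.75 to 0.99). In 6 of the 11 the arm known as the passenger held more reads than the guide over both libraries.

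**Figure D5:**
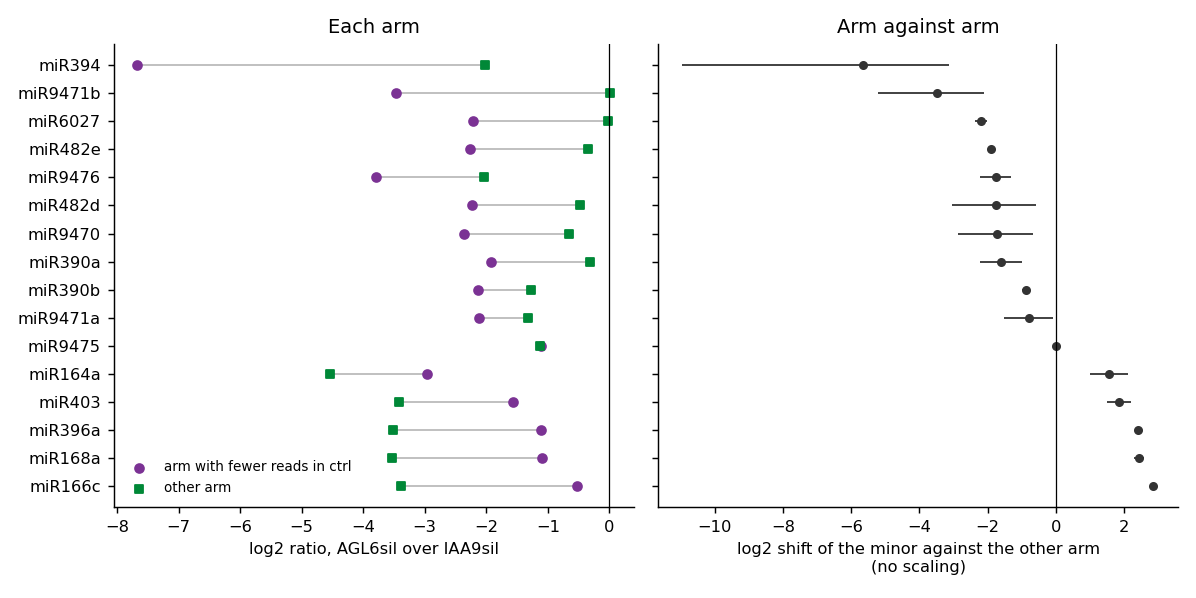
For 16 precursors (y axis), the log2 ratio of AGL6sil over IAA9sil of each arm (left, scaled by library median) and the log2 shift of the arm with fewer reads in ctrl against the other arm (right, unscaled, with 95% exact counting intervals). The shift runs from −5.65 for miR394 to 2.86 for miR166c, with 10 intervals below 0, 5 above 0 and that of miR9475 across 0.

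Predicted miRNAs higher in AGL6sil included several with almost no reads in IAA9sil. novel_267, of 24 nt, had 366 reads in AGL6sil and 2 in IAA9sil, a log2 ratio of 6.64 (4.78 to 9.69). novel_500 had 178 in AGL6sil and 2 in IAA9sil (5.60, interval 3.73 to 8.66). For 2 further ones no read was found in IAA9sil, which was then taken at 3 reads, the number a count of 0 allows. novel_84, with 154 reads in AGL6sil, had a log2 ratio of 4.81 at this floor and a counting interval from 4.49 upwards. novel_553, with 52 reads in AGL6sil, had a ratio of 3.24 and an interval from 2.89 upwards. novel_267, novel_500, novel_84 and novel_553 passed the read limit only through AGL6sil, with 369, 180, 154 and 52 reads over the 3 libraries. Their low counts in IAA9sil are therefore no separate result. Between the scales these ratios at the floor ran from 4.68 to 5.78 for novel_84, from 3.12 to 4.21 for novel_553 and from −4.12 to −3.02 for novel_531, described with the lower ones.

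Of the predicted miRNAs past the limit, novel_351 had the most reads. This 21-nt sequence starting with U had 6280 reads in AGL6sil and 416 in IAA9sil, a log2 ratio of 3.04 (2.90 to 3.19), and was the predicted miRNA with the most reads in AGL6sil. Of 14 predicted miRNAs with at least 1000 reads in both libraries together, 3 were past the limit and higher and 0 lower. The other 2 of these were novel_275, with 1143 reads in AGL6sil and 190 in IAA9sil (1.71, interval 1.49 to 1.94), and novel_17, with 989 in AGL6sil and 143 in IAA9sil (1.92, interval 1.66 to 2.18). novel_275 and novel_17 were singled out on their values.

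The most abundant predicted miRNA over both libraries, novel_1, was not past the limit, with 5587 reads in AGL6sil and 6358 in IAA9sil and a log2 ratio of −1.06 (−1.11 to −1.01). The next, novel_217, had 4710 reads in AGL6sil and 2495 in IAA9sil (0.04), and novel_286 had 2189 in AGL6sil and 1069 in IAA9sil (0.16). novel_5 had 1643 in AGL6sil and 1137 in IAA9sil (−0.34). The ratios of novel_217 and novel_5 changed sign between scales, and those of novel_1 and novel_286 did not.

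Fewer predicted miRNAs were lower in AGL6sil, and they had few reads. novel_531 had 0 reads in AGL6sil and 26 in IAA9sil, and its log2 ratio was −3.99 with AGL6sil taken at 3 reads, with a counting interval that ended at −3.59. novel_264 had 12 reads in AGL6sil and 100 in IAA9sil, a log2 ratio of −3.93 (−4.93 to −3.07). Its sequence could pair with miR172c over 19 positions, with 16 Watson-Crick and 1 GU pair, and miR172c was itself lower in AGL6sil.

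The other low ratios were those of novel_296, with 7 reads in AGL6sil and 42 in IAA9sil (−3.46, interval −4.86 to −2.29), and novel_304, with 9 in AGL6sil and 41 in IAA9sil (−3.06). novel_93 had 20 reads in AGL6sil and 88 in IAA9sil (−3.01, interval −3.79 to −2.30), and novel_225 had 22 in AGL6sil and 73 in IAA9sil (−2.60, interval −3.36 to −1.90). All 6 were past the limit under every scale. By sequence, novel_296 and novel_304 are 21 nt long, novel_264 is 20 nt, novel_225 is 23 nt and novel_93 is 24 nt.

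Just inside the limit among the predicted miRNAs were novel_117 at −1.56 and novel_79 at −1.54, and just outside were novel_337 at −1.48 and novel_306 at −1.47. At the edge of the read limit, novel_153 with 23 reads in AGL6sil and 12 in IAA9sil and novel_322 with 23 in AGL6sil and 13 in IAA9sil had 50 reads in all 3 libraries together. novel_444, with 34 reads in AGL6sil and 10 in IAA9sil, and novel_447, with 33 in AGL6sil and 8 in IAA9sil, had 49 and were left out. Among known miRNAs, miR482d-5p, with 57 reads in the 3 libraries, and miR393, with 52, lay just inside this limit, and miR172a and miR171b-5p, with 48 and 46, just outside.

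Among the sequences at hand, 32 of 42 predicted miRNAs were 24 nt long and 35 of 44 known ones 21 nt. The 7 predicted miRNAs of 21 nt had a median log2 ratio of 1.80, with 4 higher and 2 lower, and the 32 of 24 nt a median of 0.87, with 9 higher and 8 lower. Since the sequences belong to miRNAs chosen for their change against ctrl, and AGL6sil takes part in that choice, these medians describe the selected set only. Only 3 seeds were shared. novel_25, novel_343 and miR9475-5p had the seed ACGAUCU in common, with log2 ratios of −0.03, 0.40 and −1.12. miR9471a-5p and miR9471b-5p shared AGGUGCU and were both past the limit and lower, at −2.11 and −3.46, and miR395a and novel_4 shared UGAAGUG, at 2.13 and 0.52.

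The depth set how firmly single differences can be read. The median width of the counting interval was 0.41 log2 units for known and 1.28 for predicted miRNAs. Fewer than 100 reads in both libraries together lay behind 8 of the 36 known and 27 of the 44 predicted miRNAs past the limit. Among known miRNAs the median log2 ratio was higher where there were more reads, an order that does not depend on the scale, at −1.37 for 6 miRNAs with fewer than 50 reads in both libraries, −1.34 for 8 with 50 to 100, −0.99 for 32 with 100 to 1000, −0.80 for 23 with 1000 to 10000 and −0.40 for 22 above that. Among the 22 most abundant, 3 were past the limit and lower (miR166c-5p, miR396a-3p and miR171f) and 1 higher (miR398a).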

How the data were processed

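Small RNA libraries of AGL6sil, IAA9sil and ctrl, 1 per group, were grouped by sample title and treatment. The deposited values are raw counts of reads per mature miRNA. Per the study's methods, the authors removed low-quality and adapter reads, mapped reads of 18 to 30 nt to the genome with Bowtie, aligned them to miRBase (miRBase21 in Results, miRBase20.0 in Methods) or to miREvo and mirdeep2 predictions, and counted them with custom scripts, without normalization. Build and versions are not given in the sources used here. Reads shared by near-identical family members may be split between rows.

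Counts were scaled by the median of each library over 634 rows (factor 1.83). A count of 0 was taken at 3 reads. Ratios carry 95% Clopper-Pearson intervals, and arm shifts exact conditional intervals of the odds ratio of 4 counts. The limits of 50 reads and a log2 ratio of 1.5 follow the study. Sequences were compared without gaps over at least 18 positions, on the same strand (at most 3 mismatches) or as a duplex (at most 2 unpaired positions and at least 12 Watson-Crick pairs).

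The text names the 10 known and 6 predicted miRNAs (or all, if fewer) per direction whose interval ends farthest from 0, the 5 of each class with the most reads, up to 8 arm pairs with the largest shift, the extremes and the most abundant member of each target group, and the miRNAs next to each limit. The remaining ones named, those past the limit in each family with their relatives and the miRNAs with sequences like a known one, were chosen after their values were seen. Members and groups were chosen with earlier results of these data known.

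Alternatives were the class median, the median of ratios of DESeq2 1.42.0, TMM of edgeR 4.0.16 (R 4.3.3), total miRNA reads, the clean reads of the study, raw counts, other read filters, a 1.5-fold limit, the interval past the limit, and for low counts a pseudocount of 1 or a floor of 3 reads. Python 3.11.15, scipy 1.17.1 and pandas 2.3.3 were used.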

Additional observations from a re-analysis of the deposited data

How the results depend on the processing

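With 1 library per group the spread between ovary pools was not measured, and the counting intervals do not hold it. No paired analysis was possible because each group has 1 library. In AGL6sil against IAA9sil, 32 known miRNAs were lower and 4 higher, and 16 predicted ones lower and 28 higher. Known lower became 15 with the class median, 15 with clean reads, 16 with raw counts and 55 at the 1.5-fold limit. Known higher became 10, 9, 9 and 9 in the same order, 7 without a read filter and 2 with the interval past the limit. Predicted lower became 10 with total miRNA reads, 7 with clean reads, 7 with raw counts, 61 without a read filter, 9 with 50 reads in both silenced libraries together, 6 with 50 in the larger of them, 63 at the 1.5-fold limit and 8 with the interval past the limit. Predicted higher became 91 with clean reads, 82 with raw counts, 73 without a read filter, 86 at the 1.5-fold limit and 12 with the interval past the limit. The scales differ by construction in the factor between the libraries, and a filter or limit by construction in what it lets pass. Of the 38 miRNAs past the limit that the naming rule gave, 26 stayed past it under all 8 alternatives for single values, and none changed direction: 264 of 304 values were past the limit and 40 fell short of it. For the higher known miRNAs, the other scales could only raise the ratio. For the higher predicted ones, only the class median lowered it, with a change of −0.13. Many of the 38 were named because their interval lay far from 0, and DESeq2 moved the ratios by only 0.02. Part of this outcome was thus fixed in advance. The count of 10 precursors with a lower minor arm was 11 with the minor arm defined by the silenced libraries, 7 of 13 with 50 reads in the silenced libraries on each arm, 10 by direction alone and 9 of 11 with the passenger arm, the last chosen after seeing the data.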

Other observations

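With the library median, some known miRNAs under the limit of 50 reads differed by more than counting error. miR172a, which targets AP2 factors like miR172c, had 2 reads in AGL6sil and 28 in IAA9sil (log2 ratio −4.68, interval −7.80 to −2.69), and the GRAS regulator miR171b-5p had 4 in AGL6sil and 33 in IAA9sil (−3.92, interval −5.88 to −2.43). Both arms of miR477 were low in AGL6sil. miR477-3p had 2 reads in AGL6sil and 20 in IAA9sil (−4.20, interval −7.34 to −2.15), and miR477-5p had 2 in AGL6sil and 11 in IAA9sil (−3.33, interval −6.55 to −1.14). No read was found in AGL6sil for miR167b-3p, with 16 in IAA9sil, or for miR159b, with 14. Both arms of miR9469 went the other way, miR9469-5p with 23 reads in AGL6sil and 3 in IAA9sil (2.06, interval 0.34 to 4.44) and miR9469-3p with 22 in AGL6sil and 3 in IAA9sil (interval 0.27 to 4.38). They were singled out on their values. With the library median, the interval left 0 out for 11 of 34 known miRNAs under the read limit. Of these, 9 were lower and 2 higher in AGL6sil. The same held for 76 of 226 predicted ones, 40 lower and 36 higher. The class median raised the ratios of known miRNAs by 1.28, so these counts depend on the scale.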
